A study of Mus musculus with 26 samples.

Results

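The variable (V) segments of the T cell receptor (TCR) alpha and beta chains were taken as all gene symbols that start with Trav or Trbv. This rule gave 164 of 46517 symbols, 129 for the alpha chain and 35 for the beta chain. Many Trav segments of the mouse occur in near-identical copies, whose symbols carry a d or an n after the subgroup number. The values of such copies were summed, so that the 129 alpha symbols became 57 families, and with the 35 beta symbols 92 families were followed. Of the 164 symbols, 11 were listed at 0 in all 26 libraries, and 7 families were at 0 throughout. RNA sequencing was performed on thymocytes from 3 TCR transgenic (TCRtg) lines, sorted at 3 stages, with 3 libraries in each group and 2 in TG6 late positive selection. F5tg Rag1KO and OT-1tg Rag2KO mice, both C57/BL6, carry rearranged receptor transgenes and lack a recombinase gene. TG6tg H2b/d mice, from C57/BL6 and B6.C-H2d/bByJ parents, carry rearranged alpha and beta transgenes of a T cell clone, and their genotype lists no Rag deletion. Cells of the early stage of positive selection were CXCR4+CCR7- among CD4+CD8+ thymocytes, cells of the late stage were CXCR4-CCR7+ among the same thymocytes, and mature CD8SP cells were CD4-CD8+ and also CXCR4-CCR7+. The labels give no treatment and no age, and the promoters that drive the transgenes are not given in the sources used here. TG6 differs from the other lines in Rag genotype, strain background and transgene, and F5 and OT-1 differ from each other in the deleted Rag gene and the transgene, so these cannot be told apart in the comparisons of lines.

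A V segment encodes most of the variable domain of a TCR chain, including the first and second loops that contact the MHC molecule. In a normal thymocyte, Rag1 and Rag2 join a V segment to a joining segment, in the beta chain with a diversity segment between them, and the joined exon is spliced to a constant gene. The beta locus as a rule yields a single productive chain per cell, whereas the alpha locus can rearrange again on both alleles, moving from segments near the joining cluster to more distant ones. A rearranged transgene brings its own V segments into every thymocyte, and unrearranged segments can also give low levels of germline transcripts. By the antibody names in common use, the OT-1 receptor is Vα2 and Vβ5, which are the Trav14 and Trbv12 subgroups, and the F5 receptor is Vα4 and Vβ11, which are Trav6 and Trbv16.

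The alpha and beta family with the highest mean value per kb of exon in a line is called its lead. The V exons of the 6 leads are shown because they carry most of the V segment signal of the 3 lines. They are the last coding exons of the GENCODE vM21 transcripts on GRCm38, 5′ to 3′. Of Trav14d-1, whose exon has 312 bases, the last 300 are printed. Capitals mark the first in-frame cysteine codon within the last 20 bases, the conserved cysteine where the V-encoded sequence gives way to the junction.
Trav6-7-dv9 (TG6, chr14:53710128-53710419, plus strand): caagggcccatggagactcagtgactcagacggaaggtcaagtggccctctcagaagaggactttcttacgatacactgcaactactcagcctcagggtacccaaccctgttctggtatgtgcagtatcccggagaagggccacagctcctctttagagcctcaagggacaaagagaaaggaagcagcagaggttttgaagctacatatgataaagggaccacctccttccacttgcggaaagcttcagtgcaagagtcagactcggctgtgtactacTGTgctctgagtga
Trav6-1 (F5, chr14:52638671-52638962, plus strand): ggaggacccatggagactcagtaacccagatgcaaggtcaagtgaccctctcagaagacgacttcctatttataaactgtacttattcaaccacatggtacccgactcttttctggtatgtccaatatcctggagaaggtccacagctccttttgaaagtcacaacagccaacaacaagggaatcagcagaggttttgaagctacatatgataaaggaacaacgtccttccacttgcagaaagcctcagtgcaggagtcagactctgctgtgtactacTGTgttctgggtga
Trav14d-1 (OT-1, chr14:52855867-52856166, plus strand): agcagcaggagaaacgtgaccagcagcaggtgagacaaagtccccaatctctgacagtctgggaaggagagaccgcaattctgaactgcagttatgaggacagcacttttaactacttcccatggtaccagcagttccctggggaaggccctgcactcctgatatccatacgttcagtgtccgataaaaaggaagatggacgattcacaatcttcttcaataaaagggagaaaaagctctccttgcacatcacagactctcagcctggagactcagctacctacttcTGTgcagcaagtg
Trbv1 (TG6, chr6:40891591-40891885, plus strand): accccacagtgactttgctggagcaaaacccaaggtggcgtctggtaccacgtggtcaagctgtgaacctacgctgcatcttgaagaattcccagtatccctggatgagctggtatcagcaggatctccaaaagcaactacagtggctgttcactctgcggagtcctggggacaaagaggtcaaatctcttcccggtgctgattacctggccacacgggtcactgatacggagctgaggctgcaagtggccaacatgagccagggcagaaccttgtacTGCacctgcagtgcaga
Trbv16 (F5, chr6:41151933-41152230, plus strand): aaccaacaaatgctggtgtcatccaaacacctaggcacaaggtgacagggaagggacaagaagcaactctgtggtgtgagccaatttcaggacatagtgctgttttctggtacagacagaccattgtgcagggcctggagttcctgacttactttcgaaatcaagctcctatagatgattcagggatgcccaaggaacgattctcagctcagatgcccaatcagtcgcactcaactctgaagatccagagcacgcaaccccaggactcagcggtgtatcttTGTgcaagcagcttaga
Trbv12-1 (OT-1, chr6:41113775-41114067, plus strand): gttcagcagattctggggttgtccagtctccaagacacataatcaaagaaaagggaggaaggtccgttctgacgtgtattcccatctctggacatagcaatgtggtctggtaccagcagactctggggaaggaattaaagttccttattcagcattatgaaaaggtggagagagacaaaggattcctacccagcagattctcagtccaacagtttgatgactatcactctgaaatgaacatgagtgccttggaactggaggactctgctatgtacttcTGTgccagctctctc
The alpha leads of TG6 and F5 belong to 1 subgroup and were 82.5% identical over this exon, with 51 differences. All other pairs of leads of a chain were 48.9% to 58.6% identical. The lead of F5, Trav6-1, shared 30 stretches of 50 bases with Trav6-2, which was listed at 0 in all F5 libraries, but none with Trav6-7-dv9. Trav14d-1 shared 97 such stretches with Trav14-2 and 76 with Trav14-3, so that some reads could come from any of these 3 families. The 3 beta leads shared no such stretch with the other beta segments compared.

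Library totals of the deposited normalized counts lay between 16134786 and 18944173. Libraries of a group correlated at 0.950 to 0.978 on the log2 scale. The 7 thymocyte markers were all above 0, with summed values of 44754 to 101725. Summed markers of B cells (5 genes) reached at most 319, of myeloid cells (5 genes) 283, of epithelium (4 genes) 47.7, and of erythroid cells (4 genes) 821. Summed markers of NKT and MAIT cells (3 genes, mostly Slamf1) lay between 455 and 2158, and those of gamma delta T cells (3 genes in the table) between 1745 and 12550.3. No gene of these lists was at 0 in all 26 libraries. At the early stage Rag1 was read at 10835, 15149 and 16266 in F5, where it is the deleted gene, at 51114, 58364 and 54448 in TG6 and at 5183, 4303 and 6987 in OT-1, where it is not deleted. Rag2 was read at 183, 176 and 291 in OT-1, where it is deleted, at 2322, 2529 and 2074 in TG6 and at 669, 1434 and 1448 in F5. A disrupted gene can still be read under its symbol, and these levels do not tell the deleted gene from the intact one. TG6 mature replicate 3 stood apart from the other libraries of its group in genes of less mature thymocytes, with Rag1 at 5265 against 696 and 619.9. F5 late replicate 2 did so too, with Rag1 at 1658 against 62.3 and 109. In bulk samples, fewer cells that use a segment and less of its RNA per cell cannot be told apart.

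Each line was dominated by 1 alpha and 1 beta family, and a different pair led in each line. In TG6 the alpha lead was the Trav6-7 family, with normalized counts of 14024, 17853 and 18190.3 at the early stage, 17291 and 20435 at the late stage and 13275, 12289 and 11758 in mature CD8SP thymocytes. The beta lead of TG6 was Trbv1, with 24523, 26165 and 27982, then 20107 and 20302, and 16874, 15973 and 18828. Trav6-7 lay between 16.1 and 54.0 in F5 and between 21.2 and 49.2 in OT-1. Trbv1 was listed at 0 in all 9 OT-1 libraries and in 7 of 9 F5 libraries, and stood at 2.91 in F5 early replicate 3 and 47.9 in F5 late replicate 3. Both TG6 leads were thus above every library of the other lines at each stage.

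F5 expressed a different segment of the same Trav6 subgroup, and its leads were lower than those of TG6. Trav6-1 stood at 1669.9, 1943 and 2171 at the early stage, 1162, 2066 and 2305 at the late stage and 829, 1230.4 and 1392 in mature CD8SP thymocytes. Trbv16, the beta lead of F5, stood at 814, 1094 and 1058, then 541, 1204 and 1081, and 283, 575 and 582. Outside F5, Trav6-1 was at most 4.06 and Trbv16 at most 20.3. In F5, replicate 1 had the lowest value of both leads at each stage. Per kb of exon, the mean over the 9 F5 libraries was 4855 for Trav6-1 and 2019 for Trbv16, against 42528 and 51185 for the leads of TG6.

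In OT-1 the alpha lead was the Trav14-1 family, and its level differed between stages. It stood at 8779, 9754 and 7104 at the early stage, 17001, 17409 and 17728 at the late stage and 17481, 18949.5 and 16021 in mature CD8SP thymocytes. Trbv12-1, the beta lead, stood at 27570.2, 29227 and 28784, then 23076, 21531 and 25473, and 16715, 16179.9 and 18322. The Trav14-1 family was also well above 0 in the other lines, with 264, 291 and 254 in TG6 and 89.6, 85.1 and 99.0 in F5 at the early stage. Trbv12-1 stood at 56.4, 53.7 and 42.6 in TG6 at that stage and was listed at 0 in all 3 F5 libraries. The leads were picked by their level in a line, so these differences between lines are given as a description.

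**Figure D1:**
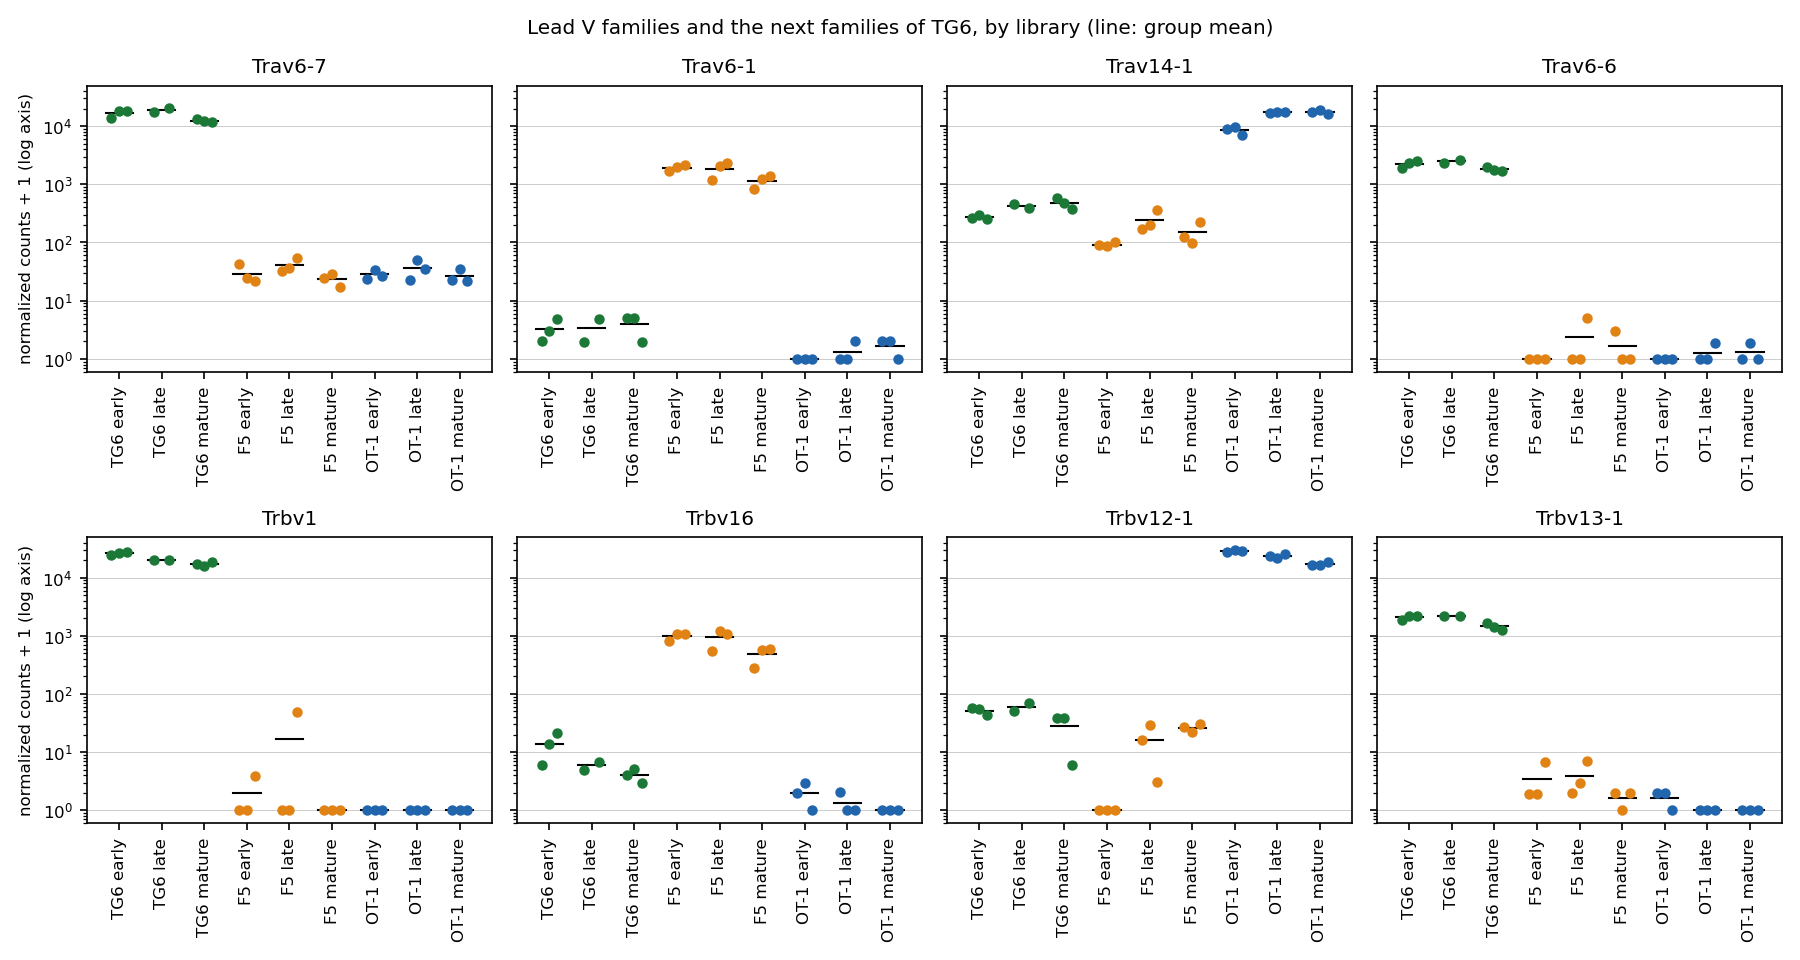
Normalized counts + 1 (log axis) of the 6 lead families and of Trav6-6 and Trbv13-1 in each of the 26 libraries, by line and stage. Points are libraries and black lines are group means. Each lead stands far above the other lines in its own line, and Trav6-6 and Trbv13-1 are at a high level in TG6 alone.

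How the values of a family were divided among its copies differed between lines. In OT-1, the identical copies Trav14d-1 and Trav14n-1 each took 49.9% of the family in mature CD8SP thymocytes, and the copy Trav14-1, which has 13 differences from them over the V exon, took 0.286%. At the early stage the same copy took 34.8% of the family in TG6 and 0.440% in OT-1, and in mature CD8SP thymocytes of TG6 it took 29.4%. In TG6, Trav6-7-dv9 took 47.8% of the Trav6-7 family at the early stage, and Trav6d-7 and Trav6n-7, which are identical to each other and have 6 differences from it, took 26.1% each. Copies were compared in 35 of the 40 families of more than 1 symbol. There, 83 pairs of copies were 87.4% to 100% identical with a median of 97.9%, and 17 pairs were identical. Reads of identical copies cannot be told apart, so a level cannot be placed on either one.

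After the leads, TG6 held a second pair of families at a level that no other line reached. Trav6-6 stood at 1897, 2324 and 2479 at the early stage, 2299.8 and 2648 at the late stage and 1993, 1741 and 1694 in mature CD8SP thymocytes. Trbv13-1, of the subgroup known as Vβ8, stood at 1903, 2168 and 2148, then 2199 and 2218, and 1663, 1429 and 1268. Trav6-6 was at most 4.08 and Trbv13-1 at most 5.93 in the 18 libraries of F5 and OT-1. Per kb of exon, Trav6-6 was 13.8% to 16.04% of Trav6-7 in the 8 TG6 libraries, and Trbv13-1 was 7.67% to 12.5% of Trbv1. Trav6-6 is 76.8% identical to the lead and shares no 50-base stretch with it, and Trbv13-1 is 52.2% identical to Trbv1. The copies Trav6-6 and Trav6d-6, which are identical, held nearly equal values.

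The next families of F5 and OT-1 were lower. Per kb, in F5 the Trav14-1 family followed, with 3.62% to 13.4% of Trav6-1, and Trbv13-2, also of the Vβ8 group, with 5.38% to 19.4% of Trbv16. In OT-1 the Trav14-2 family followed, at 0.194% to 1.08% of Trav14-1 per kb, and no beta family besides Trbv12-1 reached 10 in every library. Besides the lead, 5 alpha families stood at 10 or more in every F5 library, namely Trav14-1, Trav15-1, Trav14-2, Trav6-7 and Trav6-3. In OT-1 these were also 5, namely Trav14-2, Trav15-1, Trav6-7, Trav15-2 and Trav14-3. In TG6 there were 36 such alpha families and 2 beta families, Trbv13-1 and Trbv19.

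Below its leads and second families, TG6 held many alpha families at low levels. Per kb of exon, the highest median over its 8 libraries was 937 for Trav14-1, followed by 459 for Trav14-2, 445 for Trav3-3, 409 for Trav16 and 289 for Trav9-4. The lowest of the 36 families per kb was Trav11, with a median of 59.3. In normalized counts, Trav16 was at most 3.01 and Trav9-4 at most 2.55 in F5 and OT-1, whereas Trav3-3 lay at 7.72 to 29.4 in F5 and 5.19 to 29.8 in OT-1. The beta families of TG6 other than Trbv1 and Trbv13-1 were lower, with medians per kb of 119 for Trbv12-1, 99.3 for Trbv13-2, 69.3 for Trbv31, 60.3 for Trbv29, 48.7 for Trbv12-2 and 37.0 for Trbv19. Trbv31 is the segment that lies downstream of the beta constant genes. In normalized counts, Trbv29 and Trbv19 were at most 1.93 in F5 and OT-1, where Trbv31 reached 17.5 and 4.47.

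Some alpha segments can also join the delta chain, and their symbols carry a dv suffix. Such a symbol was found in 8 of the 57 alpha families. In OT-1 they made up 4 of the 5 families besides the lead that reached 10 in every library (Trav14-3, Trav15-1, Trav15-2 and Trav6-7), whereas in F5 they were 2 of 5 (Trav15-1 and Trav6-7) and in TG6 7 of 36. Trav15-1 lay at 52.5 to 104 in TG6, 25.2 to 59.2 in F5 and 18.2 to 41.8 in OT-1, and Trav15-2 at 32.8 to 81.3, 9.74 to 25.1 and 12.3 to 32.5. In Trav15-1 the TG6 libraries overlapped those of F5 and lay above those of OT-1, in Trav15-2 they lay above both, and F5 and OT-1 overlapped in both families. Summed markers of gamma delta T cells lay at 1745 to 3551 in TG6, 6537 to 10043 in F5 and 6818 to 12550.3 in OT-1. Trdc, the delta constant gene, made up 88.2% to 96.0% of this sum in TG6, 98.2% to 99.7% in F5 and 67.5% to 81.3% in OT-1. Sox13, a transcription factor of gamma delta T cells, lay at 25.1 to 223 in TG6, 17.3 to 117 in F5 and 1243 to 3616 in OT-1. Blk, a kinase that B cells also carry, lay at 52.3 to 185 in TG6, 8.74 to 35.9 in F5 and 90.02 to 443 in OT-1. Every F5 library was thus above every TG6 library in Trdc and below every one in Blk, and the 2 lines overlapped in Sox13, so the higher sum in F5 rests on Trdc. Their part in the values of these segments was not tested.

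The segments of the invariant receptors were low in all lines. Trav11, used by invariant NKT cells, stood at 20.8, 19.9 and 11.6 at the early stage, 18.6 and 24.6 at the late stage and 41.4, 23.4 and 14.8 in mature CD8SP thymocytes of TG6, and was at most 6.13 in F5 and 5.07 in OT-1. Trav1, used by MAIT cells, was at most 7.67 in TG6, 1.13 in F5 and 1.22 in OT-1. Summed markers of NKT and MAIT cells lay at 592 to 2158 in TG6, 537 to 1761 in F5 and 455 to 1292 in OT-1, so that the lines overlapped. This sum was mostly Slamf1, at 448 to 2154 over all libraries, whereas Zbtb16 was at most 2.95 and Klrb1c at most 15.3. The overlap of the sums thus rests on Slamf1. The part of NKT and MAIT cells in the level of Trav11 was not tested.

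More V families were detected in TG6 than in the Rag-deficient lines. Alpha families with a normalized count of at least 10 numbered 38 to 43 per library in TG6, 8 to 14 in F5 and 6 to 10 in OT-1. Beta families numbered 5 to 10, 3 to 5 and 1 to 2. The TG6 range did not overlap the others for alpha families, whereas for beta families the lowest TG6 library, at 5, equalled the highest of F5. The alpha families other than the lead summed to 4423 to 6587 in TG6, 302 to 752 in F5 and 201 to 311 in OT-1. The sum for beta families was 1356 to 2496, most of it Trbv13-1, then 62.6 to 221 and 3.09 to 18.4.

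**Figure D2:**
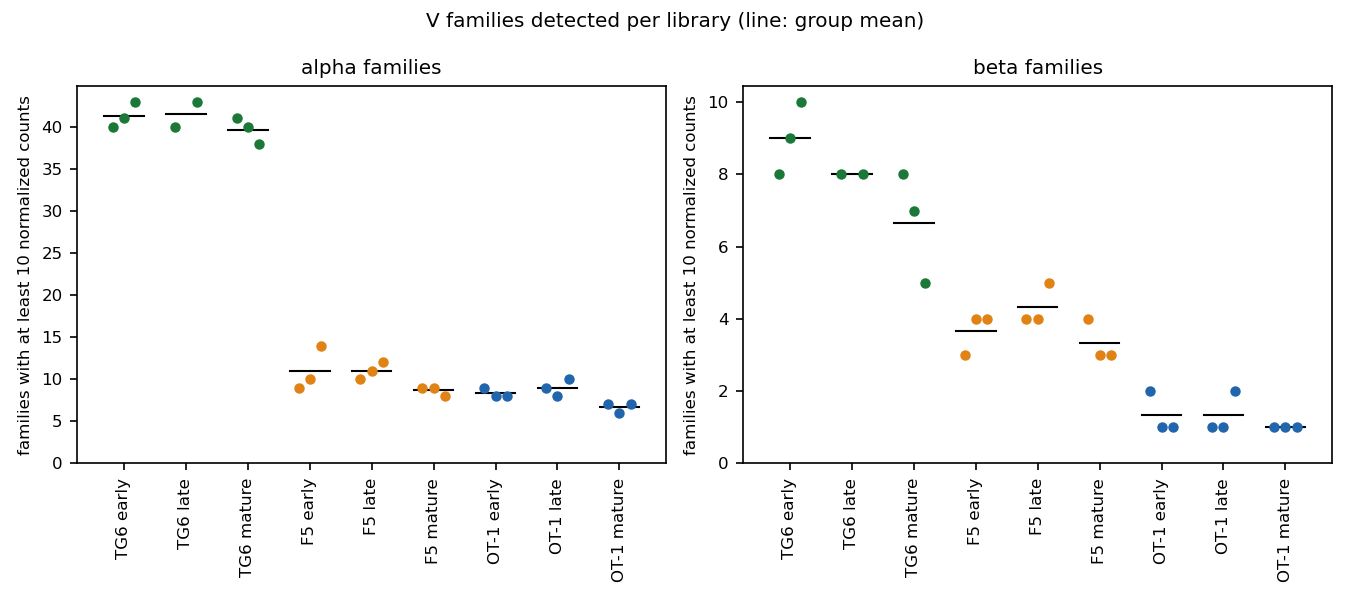
Number of alpha (left) and beta (right) V families that reached 10 normalized counts, for each of the 26 libraries, by line and stage. Points are libraries and lines are group means. TG6 libraries hold 38 to 43 alpha families and the other libraries at most 14.

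As a share of the summed alpha level per kb, the lead took 70.4% to 77.9% in TG6, 76.3% to 88.0% in F5 and 96.0% to 98.9% in OT-1. The beta lead took 87.9% to 92.5% of the beta level in TG6 and 80.0% to 91.4% in F5. In OT-1 the share of Trbv12-1 lay at 99.92% to 99.98%, and all other beta families together had 3.09 to 18.4 normalized counts. The TG6 and F5 alpha shares overlapped. A share rests on the level of the lead as well as on that of the other families.

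The lines were compared at each stage with limma on log2(value + 1), over the 16326 rows that reached 10 normalized counts in 2 or more libraries. A row counted as called where its Benjamini-Hochberg adjusted p was under 0.05. Of the 92 families, 54 passed this filter, 45 alpha and 9 beta, and the other 38 either lay below it or, for 7, at 0 throughout. The beta families that passed were Trbv1, Trbv12-1, Trbv12-2, Trbv13-1, Trbv13-2, Trbv16, Trbv19, Trbv29 and Trbv31. The filter favours TG6, as 33 of the 54 passed only because of their values in TG6 libraries. The counts below describe the families that passed and say nothing of the rest. In OT-1 against TG6, 51 families were called at the early stage (2 higher and 49 lower in OT-1), where 27.6% of all rows were called (15.4% higher and 12.2% lower). At late positive selection 50 were called (2 higher, 48 lower), against 15.4% of all rows (9.33% higher and 6.04% lower), and in mature CD8SP thymocytes 50 (2 higher, 48 lower), against 9.45% (4.62% higher and 4.82% lower). The families higher in OT-1 were its leads, Trav14-1 and Trbv12-1, at all 3 stages.

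F5 against TG6 gave a similar split. At early positive selection 44 families were called, 2 higher and 42 lower in F5, against 6.13% of all rows (3.08% higher and 3.05% lower). The numbers were 42 at the late stage (2 higher, 40 lower), against 4.75% (1.72% higher and 3.03% lower), and 45 in mature CD8SP thymocytes (2 higher, 43 lower), against 6.26% (2.06% higher and 4.2% lower). Trav6-1 and Trbv16 were the families higher in F5. Among the 21 families that would pass the filter also without the TG6 libraries, 12, 10 and 12 were lower in F5 than in TG6 at the 3 stages, and 17, 16 and 17 were lower in OT-1. The 2 comparisons share the TG6 libraries. In 10 of those 21 families every TG6 library lay above every F5 and OT-1 library, against 0.417% of all rows tested. The same was seen in 37 of 45 alpha and 4 of 9 beta families tested. These counts are not set against that share. The filter let in 33 of the 54 families through TG6 alone, against 3.06% of all rows, and so favours this outcome.

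The Trav14-1 family, the lead of OT-1, was also compared between TG6 and F5, where it is not a lead. At late positive selection it stood at 450.3 and 391 in TG6 and 166, 196 and 359.7 in F5, and in mature CD8SP thymocytes at 589.7, 473 and 379.7 and 122, 96.4 and 226. F5 was lower by a log2 change of -1.55 (SE 0.25, limma adjusted p = 0.000323) at the early stage and -1.76 (SE 0.25, limma adjusted p = 4.22e-05) in mature CD8SP thymocytes, and the groups did not overlap at either stage. At late positive selection the change of -0.88 was not called (limma adjusted p = 0.0782), but it was called without F5 late replicate 3 (limma adjusted p = 0.00639, 0.00639 to 0.429 over 15 alternatives). With only the 2 groups in the fit, the call in mature CD8SP thymocytes was lost (limma adjusted p = 0.0709, 1.63e-06 to 0.0709 over 16 alternatives).

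The Rag-deficient lines were also compared with each other. In OT-1 against F5, 8 families were called at the early stage (2 higher and 6 lower in OT-1), against 12.7% of all rows (7.79% higher and 4.88% lower). At late positive selection 10 were called (2 higher, 8 lower), against 24.1% (13.7% higher and 10.4% lower), and in mature CD8SP thymocytes 9 (3 higher, 6 lower), against 23.4% (13.3% higher and 10.1% lower). Over the 54 families these were 14.8%, 18.5% and 16.7%. Over the 21 families that would pass the filter also without TG6 they were 7, 9 and 9, or 33.3%, 42.9% and 42.9%. Without F5 late replicate 2, 41 families were called in F5 against TG6 and 11 in OT-1 against F5 at the late stage, where all libraries gave 42 and 10. All these counts hold the 4 leads of both lines, whose difference the choice of leads fixes. Trbv13-2 stood at 89.9, 96.4 and 118 in F5 and 9.32, 2.09 and 10.1 in OT-1 at the late stage and was lower in OT-1 by a log2 change of -3.84 (SE 0.42, limma adjusted p = 5.56e-07). Trav6-3, of the subgroup of the F5 lead, stood at 17.9, 19.2 and 21.3 in F5 and 0, 0 and 0.879 in OT-1 in mature CD8SP thymocytes and was called at all 3 stages. It is 87.9% identical to Trav6-1 and shares no 50-base stretch with it. Trav14-3 was called higher in OT-1 in mature CD8SP thymocytes, at 32.3, 17.7 and 18.2 against 6.07, 8.50 and 9.64 in F5 (limma adjusted p = 0.0107), and shares stretches with the OT-1 lead.

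The V segments were set beside the constant genes to which they are spliced. The summed alpha segments relative to Trac, both per kb of annotated exon, lay at 1.15 to 1.196 in TG6, 0.664 to 1.06 in F5 and 0.944 to 1.11 in OT-1. Every TG6 library was above every other library, and F5 and OT-1 overlapped. The summed beta segments relative to Trbc1 and Trbc2 together lay at 0.428 to 0.552 in TG6 and 0.437 to 0.507 in OT-1, but at 0.0197 to 0.0510 in F5, with no overlap. In F5 the first beta constant gene was as high as in TG6, as Trbc1 stood at 33524, 32751 and 37238 in F5 and 30107, 31996 and 35196 in TG6 at the early stage. Trbc2 was lower in F5 at that stage, at 22157, 19939.5 and 22178 against 73819, 80577 and 86689. Trac stood at 6668, 7228 and 7856 in F5 and 41397, 51783 and 53883 in TG6. With 3 mice per line, the smallest two-sided p of an exact permutation test of lines is 0.1, so none was run on these ratios.

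**Figure D3:**
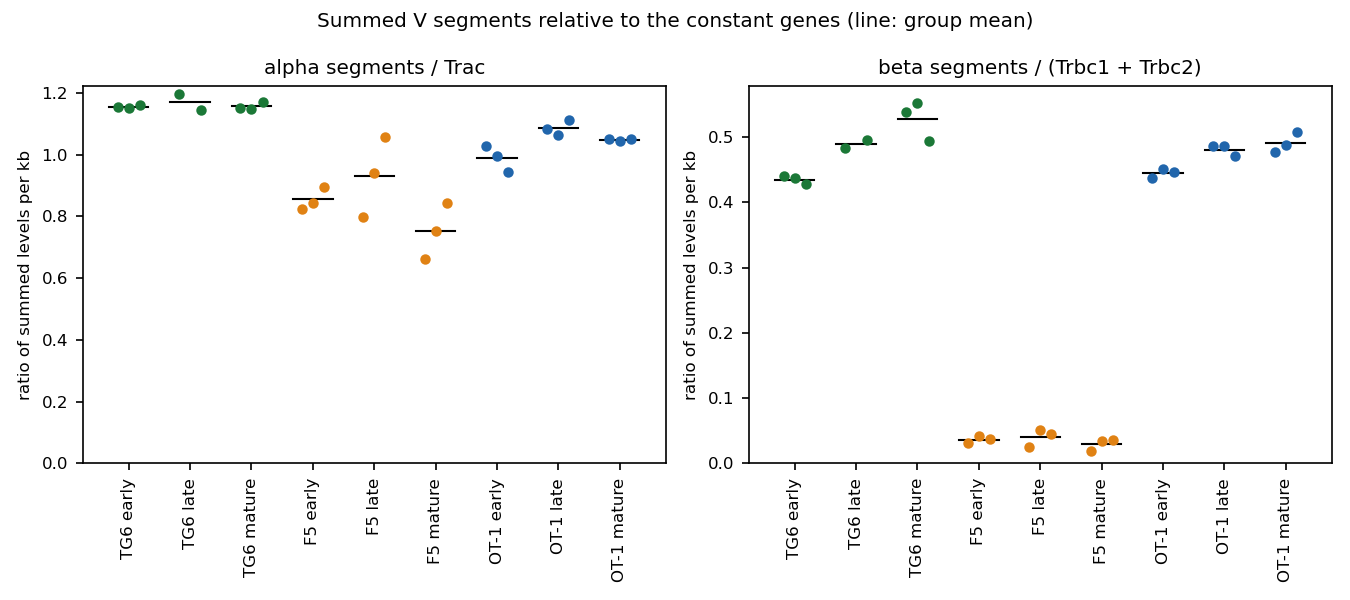
Summed level per kb of the alpha segments relative to Trac (left) and of the beta segments relative to Trbc1 and Trbc2 (right) in each of the 26 libraries. Points are libraries and lines are group means. The F5 beta ratio is at most 0.051, against at least 0.428 in the other lines.

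Between stages, Trav14-1 rose in OT-1 and in TG6. From the early stage to mature CD8SP, the OT-1 lead Trav14-1 rose by 1.04 on the log2 scale (SE 0.25, limma adjusted p = 0.00354), and Trac by 0.93 (limma adjusted p = 3.09e-05). In TG6, where Trav14-1 is not a lead, it rose by 0.81 (SE 0.25, limma adjusted p = 0.0141), and this call was lost without TG6 mature replicate 1 (limma adjusted p = 0.079, 0.000792 to 0.079 over 16 alternatives). In F5 the change was 0.60 and was not called (limma adjusted p = 0.102). With the mouse as a block, which pairs the libraries taken as 1 mouse, the F5 change was called (limma adjusted p = 0.012), as it was without F5 mature replicate 2 (limma adjusted p = 0.0196, 0.012 to 0.537 over 16 alternatives).

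The other leads had lower means in mature CD8SP thymocytes, but none was called. The log2 change was -0.42 for Trav6-7 and -0.61 for Trbv1 in TG6 (limma adjusted p = 0.283 and 0.64). In F5 it was -0.77 for Trav6-1 and -1.10 for Trbv16 (limma adjusted p = 0.272 and 0.112), and in OT-1 -0.74 for Trbv12-1 (limma adjusted p = 0.426). For none of these 5 leads did the early and mature libraries of the line overlap. The same held for 42.5% of all rows tested in TG6, 34.2% in F5 and 41.1% in OT-1. The fit over all 9 groups takes its spread also from lines where these leads lie near 0. With only the 2 groups in the fit, Trbv1 fell by 0.61 in TG6 (limma adjusted p = 0.00741, 0.00741 to 0.798 over 16 alternatives) and Trbv12-1 fell by 0.74 in OT-1 (limma adjusted p = 0.000672, 0.000672 to 0.561 over 16 alternatives). The constant genes Trbc1 and Trbc2 fell in all 3 lines, Trbc1 by 1.22 in TG6, 0.71 in F5 and 1.02 in OT-1 on the log2 scale.

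The ratio of the alpha lead to the beta lead, both per kb, followed these changes. In OT-1 it was 0.299, 0.313 and 0.231 at the early stage, 0.691, 0.758 and 0.652 at the late stage and 0.980, 1.10 and 0.820 in mature CD8SP thymocytes, with no overlap between stages. In TG6 it was 0.648, 0.774 and 0.737, then 0.974 and 1.14, and 0.892, 0.872 and 0.708. In F5 it was 2.42, 2.09 and 2.42, then 2.53, 2.02 and 2.51, and 3.45, 2.52 and 2.82, so that the alpha lead was above the beta lead in every F5 library.

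Over all families tested, 4 of 54 were called between mature CD8SP and the early stage in TG6 (1 higher, 3 lower), against 34.7% of all rows (19.5% higher and 15.2% lower). In F5, 6 were called (1 higher, 5 lower), against 19.6% (10.8% higher and 8.8% lower), and in OT-1 10 (2 higher, 8 lower), against 23.3% (12.8% higher and 10.5% lower). Over the 21 families that would pass the filter also without TG6, 3 were called in TG6 (14.3%), 4 in F5 (19.05%) and 6 in OT-1 (28.6%). The families called lower had means at the early stage of 12.7 to 36.1 in TG6, 2.26 to 16.5 in F5 and 2.34 to 9.97 in OT-1. In TG6 these were Trav12-4, Trbv13-2 and Trbv16. Trav12-4 reached 10 only in the early TG6 libraries, at 10.9, 12.9 and 21.3. It thus passed the filter only through the group where it is high, which favours its call. Without TG6 mature replicate 3 there were 4 calls in TG6, 2 higher and 2 lower. The number of calls in TG6 ranged from 2 to 14 with the pseudocount, and that of OT-1 fell to 4, 5 and 6 without early replicates 1, 2 and 3 and to 5 and 6 without mature replicates 1 and 2. Trav21 fell in OT-1, from 10.99, 10.04 and 8.87 to 2.06, 0 and 1.01 (limma adjusted p = 0.000291), and in F5, from 9.74, 12.6 and 7.77 to 3.03, 0.945 and 2.01 (limma adjusted p = 0.00517). In TG6 it stood at 124, 68.6 and 111 and 70.7, 69.1 and 43.4 and was not called (limma adjusted p = 0.27). Trav17, Trav19 and Trav3-4 were also called lower in both F5 and OT-1. Trbv13-2 was called lower in TG6, with 33.6, 40.8 and 33.9 at the early stage and 16.2, 18.3 and 9.86 in mature CD8SP thymocytes (limma adjusted p = 0.0208), and in OT-1, with 10.99, 8.03 and 5.92 and 2.06, 1.04 and 4.04 (limma adjusted p = 0.00954). Families at such low levels were named after their values were seen.

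**Figure D4:**
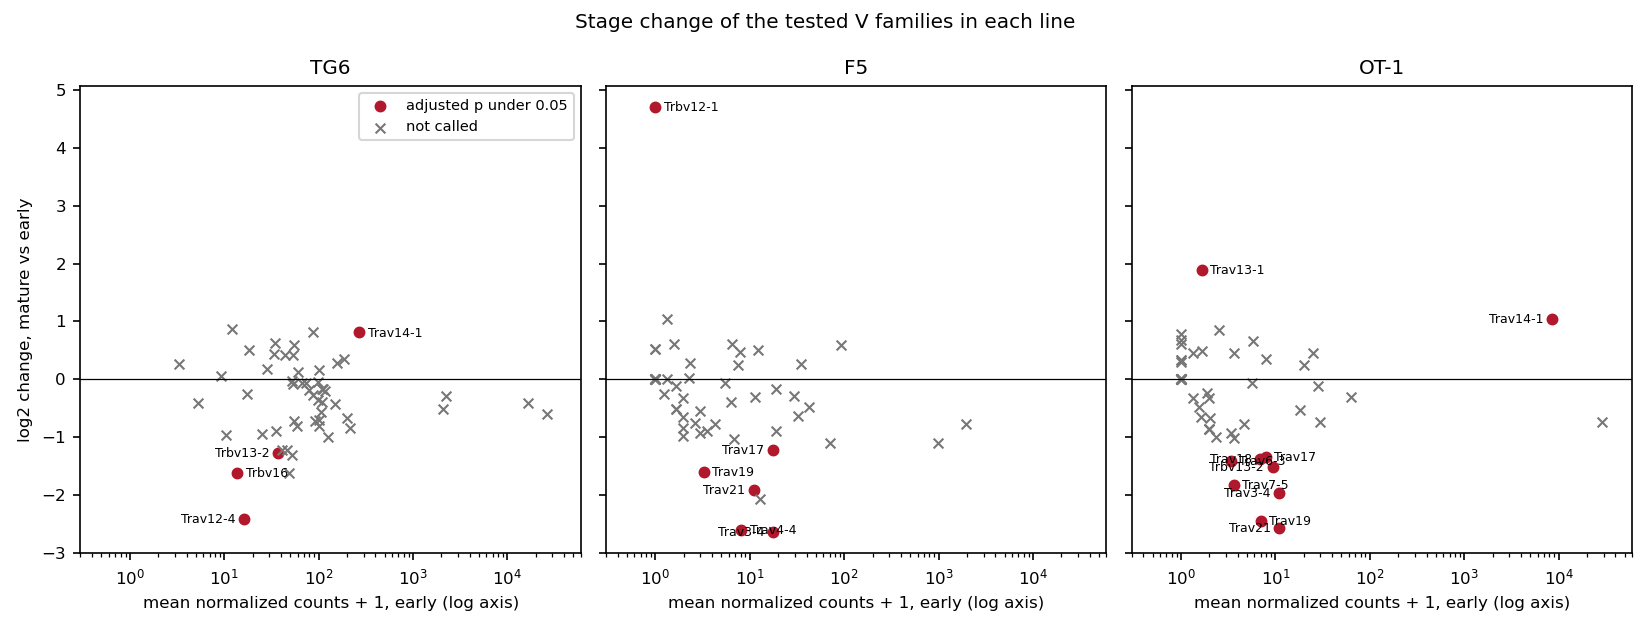
Log2 change from the early stage to mature CD8SP of the 54 tested V families against the mean normalized counts + 1 at the early stage (log axis), in each line. Filled points are families with a limma adjusted p under 0.05 and crosses are the others. In OT-1 the lead Trav14-1 rose, and the families called lower lie in the left part of each panel, with early means of at most 36.1.

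The difference between lines in this stage change was tested as an interaction. For TG6 against OT-1, limma called 0 of 54 families, against 4.19% of all rows called (2.92% higher and 1.27% lower). An unadjusted p under 0.05 was found for 6 of the 54 families and for 2304 of all 16326 rows. For TG6 against F5, 1 family was called, against 4.42% of all rows (3.07% higher and 1.35% lower). This was Trbv12-1 (limma adjusted p = 0.000107). Because F5 starts from 0, the size of this difference depends on the pseudocount. In F5, Trbv12-1 was listed at 0 in the 3 libraries of the early stage and stood at 15.3, 28.1 and 2.04 at the late stage and 26.3, 20.8 and 29.1 in mature CD8SP thymocytes. In TG6 it stood at 56.4, 53.7 and 42.6 at the early stage and 38.4, 37.6 and 4.93 in mature CD8SP thymocytes.

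Along the alpha locus, upstream of Trac on chromosome 14, more segments were detected in TG6 near the constant gene than far from it. The 129 alpha symbols were split by position into a proximal, a central and a distal stretch of 43 each. In TG6 at the early stage, 35 of the 43 symbols nearest to Trac had a mean of at least 10, against 25 in the central and 19 in the distal stretch. In mature CD8SP thymocytes the numbers were 34, 20 and 14. Leaving out the lead, the symbols of the proximal stretch summed to 2899.8 to 3243 in TG6 at the early stage, those of the central stretch to 644 to 1336 and those of the distal stretch to 1325 to 2008. Of the distal sum, a mean of 1113 was Trav6d-6. Of the proximal sum, a mean of 1113 was Trav6-6, which is identical to Trav6d-6. In F5, 6, 3 and 2 symbols reached a mean of 10 in the 3 stretches at the early stage, and in OT-1 3, 3 and 2. Because reads of d and n copies can be shared between the stretches, these positions are a description of the deposited values only.

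**Figure D5:**
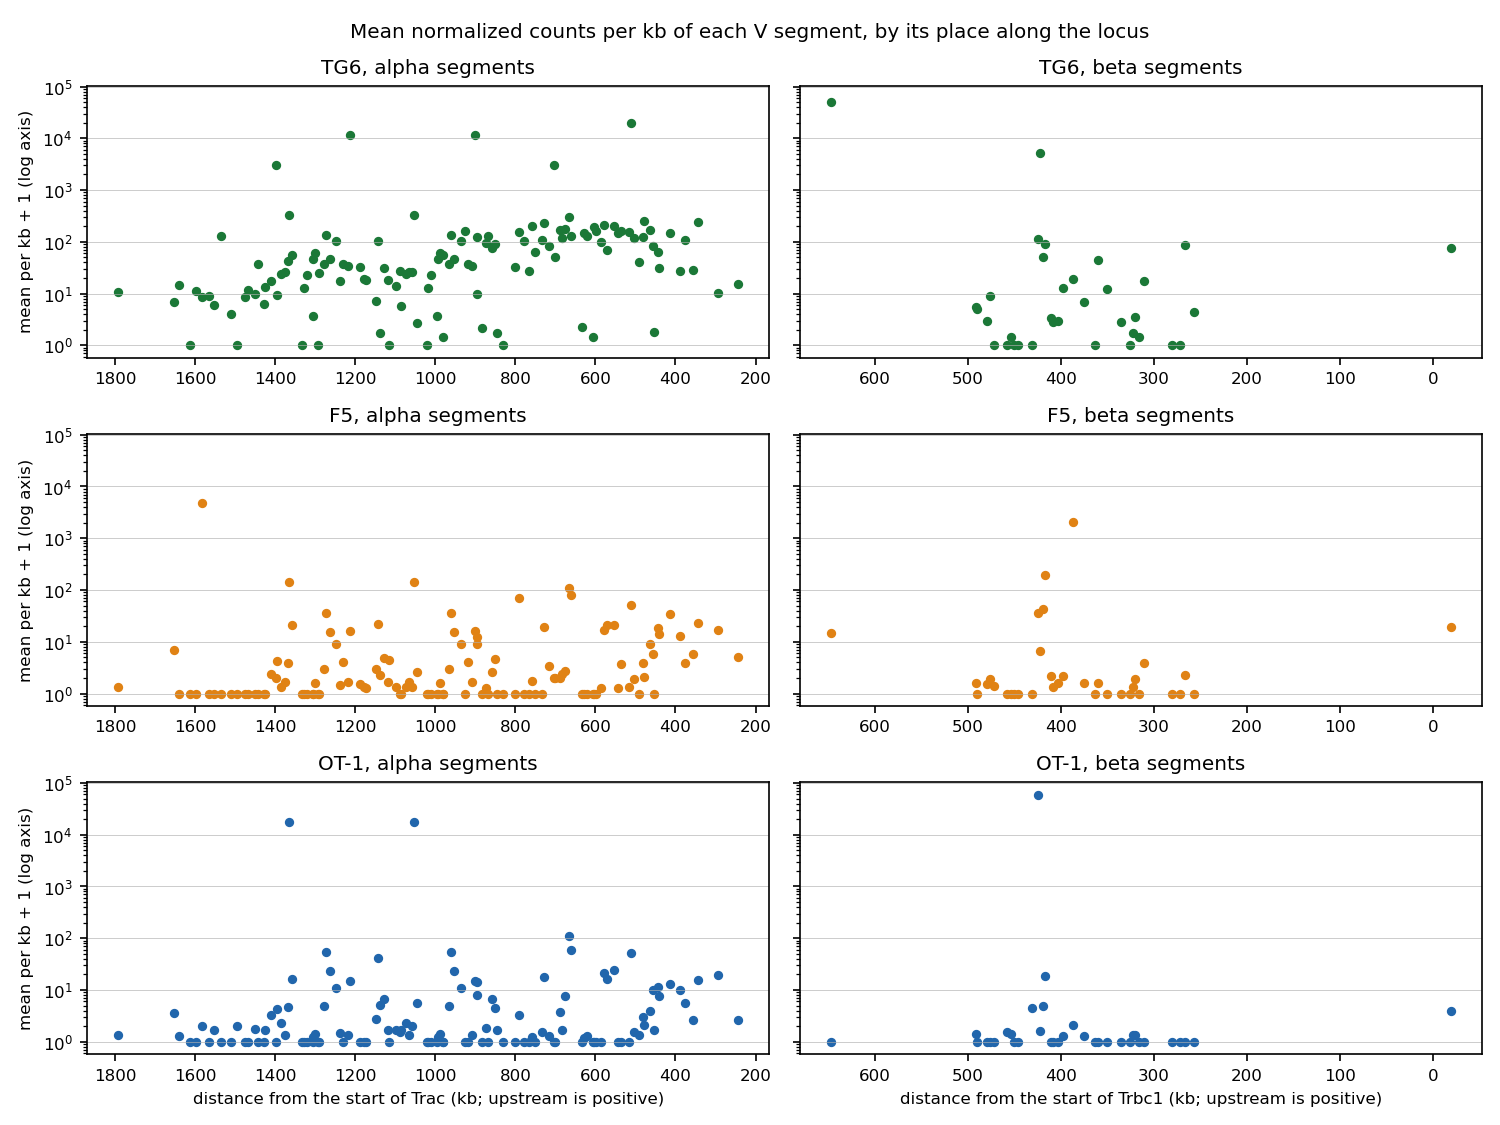
Mean normalized counts per kb + 1 (log axis) of each V segment symbol against its distance in kb from the start of Trac (alpha, left) or Trbc1 (beta, right), in the 3 lines. Each point is a symbol. In TG6 most alpha symbols are above 0, and in F5 and OT-1 many lie at 0 (a value of 1 on this axis).

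The genes that join and carry V segments were followed as lists. Of 16 genes for recombination and repair, 15 were in the table and tested. From the early stage to mature CD8SP, 4 higher and 8 lower were called in TG6, 3 higher and 8 lower in F5 and 4 higher and 6 lower in OT-1, against 34.7%, 19.6% and 23.3% of all rows. Rag1 fell by 5.37 on the log2 scale in TG6 (limma adjusted p = 4.12e-05), 3.18 in F5 (limma adjusted p = 0.012) and 4.18 in OT-1 (limma adjusted p = 0.00111). Dntt, the terminal transferase that adds bases at the junctions, fell by 2.90, 1.69 and 2.29 (limma adjusted p = 2.47e-05, 0.01 and 0.000642). Between lines at the early stage, the list had 3 higher and 5 lower in OT-1 against TG6, 1 higher and 0 lower in OT-1 against F5 and 1 higher and 1 lower in F5 against TG6, with 27.6%, 12.7% and 6.13% of all rows called. Of 8 constant chain and CD3 genes tested, 2 higher and 3 lower were called between stages in TG6, 2 higher and 3 lower in F5 and 3 higher and 2 lower in OT-1, and the comparisons of lines at the early stage called 0 higher and 2 lower, 2 higher and 1 lower and 0 higher and 2 lower in the same order. The shares of all rows are those just given, 34.7%, 19.6% and 23.3% between stages and 27.6%, 12.7% and 6.13% between lines.

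None of the 76 joining and diversity segments in the table passed the filter on low values. Of 25 gamma and delta receptor genes, 9 were tested, and at the early stage 7 higher and 1 lower were called in OT-1 against TG6, 2 higher and 0 lower in OT-1 against F5 and 2 higher and 1 lower in F5 against TG6, where 27.6%, 12.7% and 6.13% of all rows were called. Trdc lies between the alpha V segments and Trac and is lost from an allele when alpha segments join. It stood at 2029, 1699 and 1838 in TG6, 9991, 8769 and 9406 in F5 and 7406, 6541 and 7244 in OT-1 at the early stage. TG6, the line with the most V families, was thus the lowest in Trdc, by a log2 change of 2.34 for F5 over TG6 (limma adjusted p = 2.95e-08) and 1.93 for OT-1 over TG6 (limma adjusted p = 1.73e-07). Whether the 2 levels are linked was not tested.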

How the data were processed

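RNA from sorted thymocytes was sequenced in 26 libraries. By the submitters' processing notes and the methods of the study, reads were trimmed (Trimmomatic 0.32), mapped on mm10 (Bowtie2 2.3.2) and quantified (RSEM 1.2.31), and the authors deposited a signal per gene symbol, the normalized counts of the DESeq2 median of ratios. The annotation used is not given in the sources used here, and nor is strand. After division by the commonest low step of a library, 42.4% to 44.2% of values above 0 were whole (within 0.01), so reads were not recovered and no count test was run. Without counts, no interval for counting error is given.

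Trav symbols that differ by a d or n, or by a delta (dv) suffix, were summed to families within the whole table. Values were fitted as log2(value + 1) with limma 3.58.1 (R 4.3.3), with 1 mean for each of 9 groups, 17 residual degrees of freedom, a trend in the prior variance and Benjamini-Hochberg adjustment per comparison. Log2 changes understate those of low values, and where a group lies at 0 or below 10, as for Trbv12-1 in F5 and Trbv13-2 in OT-1, their size depends on the pseudocount. The fit was tested on simulated data. Exon lengths, positions and sequences are from GENCODE vM21 (GRCm38, the build of mm10), in which 163 of 164 symbols were found; Trav7n-6.1 took the entry of Trav7n-6. Promoter sequences were not used here.

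The members, lists and named genes were chosen with earlier results of these data known. Named were the top 3 families per line and chain by mean per kb, up to 3 called families per direction and comparison with groups that do not overlap and a higher mean of at least 100, segments of a lead's subgroup, and Rag1, Rag2, Dntt, Trac, Trbc1, Trbc2 and Ptcra; Trdc and low families of the stage comparison were added after their values were seen. Ptcra did not pass the threshold between stages in any line (limma adjusted p = 0.165, 0.238 and 0.242). Libraries of a line with the same number were taken as 1 mouse, since 3 mice per line were sorted into 3 stages, but the labels do not tie numbers to mice, and the titles of the TG6 late libraries differ in spelling from the columns of the table. Their deviations from group means correlated at 0.105 to 0.340 in F5, 0.0188 to 0.177 in OT-1 and 0.0239 to 0.278 in TG6, with 9 of 9, 5 of 9 and 2 of 7 pairs over 0.1. Between lines the numbers do not pair mice. Alternatives were no filter, a mean of at least 50, pseudocounts of 0.1 and 5, total scaling, quantile normalization, no trend, a robust prior variance, symbols not summed, only the groups compared, a replicate block, shares not divided by length, and each library left out.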

Additional observations from a re-analysis of the deposited data

Results flagged for a closer look

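The change of Trbv12-1 from early positive selection to mature CD8SP differed between TG6 and F5 by -6.02 on the log2(value + 1) scale (limma interaction, adjusted p = 0.000107), and this test of the difference brought it here. Trbv12-1, the beta lead of OT-1, was listed at 0 in all 3 F5 libraries of early positive selection and stood at 26.3, 20.8 and 29.1 in the mature ones. In TG6 it stood at 56.4, 53.7 and 42.6 and 38.4, 37.6 and 4.93, so TG6 mature replicate 3 was far below the others. Without that library the difference was -5.11 (limma adjusted p = 5.67e-05). Over 22 alternatives it lay between -9.36 and -3.67, with adjusted p of 6e-06 to 0.00616, and the size of a change from 0 depends on the pseudocount. No group held more than 3 libraries, so single libraries were not tested for standing apart.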

How the results depend on the processing

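Of 968 alternative values of 61 named differences, 958 kept direction and side of the threshold, 3 lost the call, 7 gained it and none reversed. The losses were Trbv1 in F5 against TG6 at late positive selection (limma adjusted p = 0.0534, only the groups compared) and 2 given in the report for Trav14-1. Trav6-1 and Trbv16 gained a call for their fall in F5 with a pseudocount of 5 (limma adjusted p = 0.0454 and 0.0206, with ranges of 0.0454 to 0.637 over 16 alternatives and 0.0206 to 0.467 over 16 alternatives). Of 248 alternative counts of families called, 213 were within 1.5 times of the reported one.

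With rows of a mean of at least 50 alone, fewer families were tested, and 11, 10 and 10 were called in OT-1 against TG6 at the 3 stages, 4, 5 and 4 in OT-1 against F5, 11, 10 and 10 in F5 against TG6, and 2, 1 and 1 between stages in TG6, F5 and OT-1. With symbols not summed, copies counted singly gave 91, 79 and 87 in OT-1 against TG6, 82, 70 and 82 in F5 against TG6, 8 between stages in TG6 and 1 in the interaction of TG6 and OT-1. The stage count of TG6 was 7 with no filter, 2 and 14 with pseudocounts of 0.1 and 5, 10 with no trend and 8 with only the groups compared. That of F5 was 3 with only the groups compared, and that of OT-1 5 with no filter and 6 with a pseudocount of 5. With no filter the interactions had 1 (TG6 and OT-1) and 2 (TG6 and F5). The causes were not tested.

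Leaving out 1 library at a time gave 48 to 51, 46 to 51 and 47 to 51 families for OT-1 against TG6 at the 3 stages, 8 to 9, 9 to 13 and 7 to 9 for OT-1 against F5, 42 to 44, 40 to 42 and 43 to 48 for F5 against TG6, 3 to 6, 4 to 7 and 4 to 8 between stages in TG6, F5 and OT-1, and 0 and 1 for the interactions of TG6 with OT-1 and F5. In OT-1 the count fell from 10 to 4, 5 and 6 without early replicates 1, 2 and 3, and to 5 and 6 without mature replicates 1 and 2.

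With the mouse as a replicate block, 9 families were called between stages in F5, and this pairing changed no call of a named family besides Trav14-1 in F5. With the number as a replicate block between lines, where it pairs no mice, no count moved by over 1.5 times. The mean share of the lead per kb was 74.3% (73.8 to 74.8%) for alpha and 89.96% (89.6 to 90.3%) for beta in TG6, 81.5% (80.6 to 82.1%) and 85.6% (84.9 to 86.3%) in F5, and 98.0% (97.9 to 98.2%) for alpha in OT-1, with the range over libraries left out in turn in brackets. That of OT-1 beta was 99.95% (99.94 to 99.95%). With symbols not summed, the alpha shares of TG6 and OT-1 were 34.5% and 48.8%, since a lead is then 1 of several copies. Depth is unknown for each value, so families at or near 0 may be expressed below detection.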
